A study of Mus musculus with 16 samples.

Results

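In mouse embryonic stem cells (ESCs) kept in culture by Myc, the peaks of H3K4me3, H3K27me3 and Suz12 were set against one another to find which marks lay together, how their sizes ranked, where the Polycomb peaks sat inside the H3K4me3 peaks and which genes carried each combination. The members were all 60969 peaks of the 3 Myc-ESC lists, of 107863 peaks in the 6 lists of the series. The lists held 30345 peaks of H3K4me3, 16717 of H3K27me3 and 13907 of Suz12. Peaks of different antibodies were taken as near each other when less than 1000 bp lay between them. A gene was counted as carrying a mark when a peak reached within 2500 bp of the start of one of its curated RefSeq transcripts (GRCm38), upstream or downstream. Neither rule used the score of a peak. Both were measured from the ends of peaks, so a longer peak reaches farther and meets other marks and start sites more easily.

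Myc-ESCs were R1 mouse ESCs grown without feeder cells and without LIF. They carried an exogenous MycER fusion protein, with a stabilised point mutant of Myc in the clone the study was given, that 50 nM 4-hydroxytamoxifen (OHT) keeps active. Cells grown with LIF, the other group of the series, were not compared here. Each antibody was used on 2 Myc-ESC libraries, and 2 inputs were sequenced, of 16 libraries in all. Each antibody has 1 deposited list, and whether its libraries were pooled is not given in the sources used here. No value could therefore be set against replicate error, and no test was made. The files hold no read counts, so the depth of each library is unknown and the absence of a peak is not the absence of a mark. Each MycER line of the study is 1 clone, which limits how far the values speak for other Myc-driven lines, and the clone used for these libraries is not given in the sources used here. The antibodies were from Cell Signaling against Suz12 and from Millipore against H3K27me3 and H3K4me3.

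H3K4me3 is a mark of promoters, above all of those that start in CpG-rich DNA, and it is found at active genes. Suz12 is a core subunit of Polycomb repressive complex 2 (PRC2), the enzyme complex that places H3K27me3 on genes held silent. In ESCs many developmental genes carry H3K4me3 and H3K27me3 together, a state called bivalent, and are thought to stay silent but ready for later use. The pluripotency factors listed here are genes by which ESCs are usually known. All 15 carried H3K4me3 at the start site, among them Pou5f1 (Oct4), Sox2 and Nanog, against 63.9% of all 25755 genes. The Pax and Nkx factors, known from other lineages, carried it at every member too, so these lists cannot check the cell type on the label.

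The DNA before the start sites is shown for 1 gene of each combination, so that the windows behind the CpG values given further on can be seen. They are examples and do not stand for their class. For the first gene of each combination, ranked by the bases of its peaks, the 250 bases before the start site are printed 5′ to 3′ from GRCm38 (RefSeq) with each CpG in capitals. A peak of H3K27me3 that lay far from both other marks is printed last, as the highest-scoring of those of up to 300 bp. Rbpms (H3K4me3 alone) is read from chr8:33929864-33930113 on the minus strand, Gata2 (H3K4me3 and Suz12) from chr6:88193641-88193890 on the plus strand, Ddx4 (H3K4me3 and H3K27me3) from chr13:112652311-112652560 on the minus strand and Hoxa10 (all 3 marks) from chr6:52240855-52241104 on the minus strand. Lmx1b (Suz12 and H3K27me3) is read from chr2:33641099-33641348 on the minus strand, Gsc (Suz12 alone) from chr12:104473237-104473486 on the minus strand and Gm4981 (H3K27me3 alone) from chr10:58236661-58236910 on the minus strand. The H3K27me3 peak lay at chr9:88096400-88096643, in no curated gene, and is read from the plus strand.
Rbpms: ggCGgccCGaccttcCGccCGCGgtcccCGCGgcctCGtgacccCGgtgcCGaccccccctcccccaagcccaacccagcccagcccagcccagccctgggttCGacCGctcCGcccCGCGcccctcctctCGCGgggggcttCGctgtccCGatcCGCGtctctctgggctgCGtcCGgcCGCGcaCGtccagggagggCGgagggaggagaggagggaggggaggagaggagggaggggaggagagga
Gata2: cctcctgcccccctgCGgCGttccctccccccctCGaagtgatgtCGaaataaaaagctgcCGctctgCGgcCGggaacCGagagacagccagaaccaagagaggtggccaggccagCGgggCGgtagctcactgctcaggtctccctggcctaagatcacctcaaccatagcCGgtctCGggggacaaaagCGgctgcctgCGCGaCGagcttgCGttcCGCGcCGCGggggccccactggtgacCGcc
Ddx4: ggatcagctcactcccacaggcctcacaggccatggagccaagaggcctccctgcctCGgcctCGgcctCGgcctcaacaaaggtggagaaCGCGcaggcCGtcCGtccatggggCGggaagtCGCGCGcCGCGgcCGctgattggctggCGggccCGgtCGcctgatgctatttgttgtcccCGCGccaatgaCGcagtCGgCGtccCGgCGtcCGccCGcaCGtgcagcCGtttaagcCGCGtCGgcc
Hoxa10: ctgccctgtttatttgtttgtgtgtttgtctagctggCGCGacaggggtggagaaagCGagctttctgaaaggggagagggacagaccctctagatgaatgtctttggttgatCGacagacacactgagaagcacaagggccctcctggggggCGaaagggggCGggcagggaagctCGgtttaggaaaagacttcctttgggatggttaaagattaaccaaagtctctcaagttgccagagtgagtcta
Lmx1b: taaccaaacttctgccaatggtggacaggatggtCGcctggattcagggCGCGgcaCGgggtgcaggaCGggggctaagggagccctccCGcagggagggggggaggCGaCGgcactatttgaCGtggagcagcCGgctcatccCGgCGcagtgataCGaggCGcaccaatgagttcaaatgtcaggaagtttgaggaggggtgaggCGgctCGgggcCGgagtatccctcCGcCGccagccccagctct
Gsc: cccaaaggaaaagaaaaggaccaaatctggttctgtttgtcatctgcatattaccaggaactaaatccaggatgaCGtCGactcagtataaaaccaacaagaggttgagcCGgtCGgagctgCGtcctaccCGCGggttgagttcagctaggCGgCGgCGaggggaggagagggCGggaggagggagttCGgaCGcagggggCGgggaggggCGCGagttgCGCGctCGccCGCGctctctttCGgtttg
Gm4981: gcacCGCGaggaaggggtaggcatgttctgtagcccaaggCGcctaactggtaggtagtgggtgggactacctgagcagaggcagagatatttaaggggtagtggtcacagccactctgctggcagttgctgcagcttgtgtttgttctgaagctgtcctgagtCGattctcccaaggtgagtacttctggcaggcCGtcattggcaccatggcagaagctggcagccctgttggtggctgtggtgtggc
H3K27me3 peak near neither mark: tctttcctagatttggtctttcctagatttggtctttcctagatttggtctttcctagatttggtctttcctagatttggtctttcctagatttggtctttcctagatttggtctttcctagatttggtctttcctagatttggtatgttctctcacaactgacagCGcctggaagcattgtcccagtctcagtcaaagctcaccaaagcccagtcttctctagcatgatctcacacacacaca
The windows held 27 CpGs before Rbpms, 22 before Gata2, 31 before Ddx4, 7 before Hoxa10, 19 before Lmx1b, 22 before Gsc and 5 before Gm4981, and the H3K27me3 peak held 1. That peak opens with a short unit repeated head to tail, had a score of 350.6 and lay 224.2 kb from the nearest Suz12 peak and 38.1 kb from the nearest H3K4me3 peak.

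Most H3K4me3 peaks stood without a Polycomb mark. Most Suz12 peaks stood with H3K4me3 in the full lists, but 49% did with every list held to its 13907 highest-scoring peaks. Of the H3K4me3 peaks, 83.3% (95% Wilson interval 82.9 to 83.7) were near neither Suz12 nor H3K27me3, 5.7% (5.44 to 5.96) were near Suz12 only, 1.56% (1.43 to 1.71) near H3K27me3 only, and 2869 peaks or 9.45% (9.13 to 9.79) near both. Of the Suz12 peaks, 80.9% (80.2 to 81.5) lay near H3K4me3 and 59.3% (58.5 to 60.1) near H3K27me3. Taken by combination, 44.6% of Suz12 peaks had both other marks, 36.3% had H3K4me3 only, 14.7% had H3K27me3 only and 4.42% stood alone. These intervals cover counting error only and treat neighbouring peaks as independent, which they are not.

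**Figure D1:**
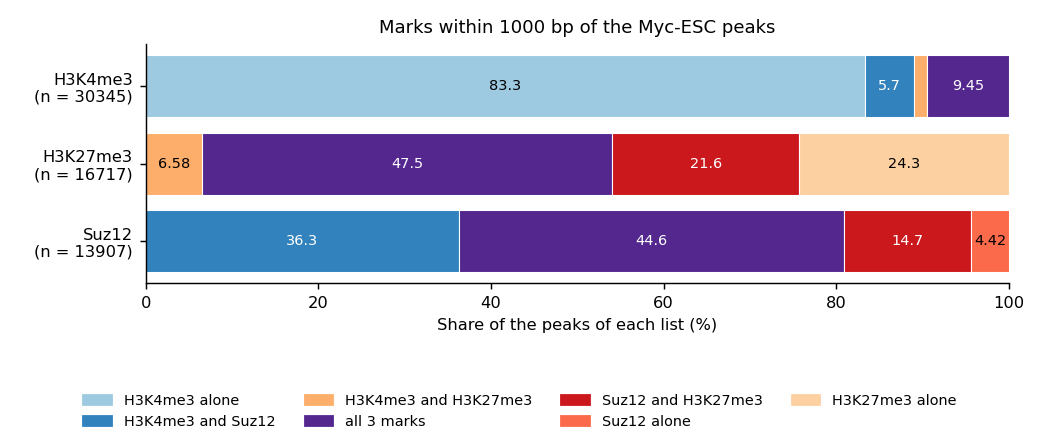
Bars give the share of the peaks of each Myc-ESC list (%, x axis) by the other marks within 1000 bp, with the number of peaks beside each list. All 3 marks held 9.45% of the H3K4me3 peaks, 47.5% of the H3K27me3 peaks and 44.6% of the Suz12 peaks.

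The H3K27me3 peaks met Suz12 more often than H3K4me3. Of these peaks, 69.1% (68.4 to 69.8) were near Suz12 and 54.1% (53.3 to 54.8) near H3K4me3, and 24.3% (23.6 to 24.9), or 4060 peaks, were near neither. A further 21.6% had Suz12 and no H3K4me3, and 6.58% had H3K4me3 and no Suz12. These shares rest on the distance chosen: when peaks had to overlap, 42% of H3K27me3 peaks were near neither mark and 31.5% of Suz12 peaks met H3K27me3, and within 5000 bp the share near neither was 15.2%. At the limit itself, the distance to Suz12 fell in the last 100 bp inside it for 201 H3K27me3 peaks and in the first 100 bp beyond it for 163. The same bands held 240 and 186 Suz12 peaks by their distance to H3K27me3, 96 and 68 Suz12 peaks by their distance to H3K4me3, and 210 and 183 H3K27me3 peaks by their distance to H3K4me3.

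The 3 lists differed in how much of the genome they covered. H3K4me3 peaks covered 90.8 Mb with a median length of 2623 bp, Suz12 peaks 9.38 Mb with a median of 269 bp, and H3K27me3 peaks 3.81 Mb with a median of 162 bp. H3K27me3 is a mark that spreads over nucleosomes, and here it was seen mostly as short peaks of low score, 79.8% of them under 100. Suz12 and H3K4me3 shared 6.51 Mb, which was 69.3% of the Suz12 bases and 7.17% of the H3K4me3 bases. Suz12 and H3K27me3 shared 1.86 Mb, which was 19.8% of the Suz12 bases and 48.8% of the H3K27me3 bases. H3K4me3 and H3K27me3 shared only 1.09 Mb, or 28.7% of the H3K27me3 bases.

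Suz12 peaks were largest where all 3 marks met. A longer peak reaches farther, so part of the differences in length between combinations is built in. Their median length was 362 bp with both other marks, 249 bp with H3K27me3 only, 232 bp with H3K4me3 only and 191 bp alone, and their median scores were 138.1, 79.8, 78.7 and 64.3. H3K27me3 peaks near Suz12 were longer than those without it, with medians of 183 bp (Suz12 only) and 169 bp (all 3 marks) against 150 bp alone and 150 bp with H3K4me3 only. Of the H3K27me3 peaks that stood alone 92.4% had a score under 100. With peaks scoring under 100 left out of every list, 32.2% of the Suz12 peaks were near H3K27me3 and 3.85% of the H3K4me3 peaks were near both Polycomb marks.

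Within each list the chance of meeting another mark moved with rank. From the lowest 10% to the highest 10% of Suz12 peaks by score, the share near H3K27me3 went from 47.1% (44.4 to 49.7) to 92.7% (91.2 to 93.9) and the share near H3K4me3 from 74.5% (72.1 to 76.7) to 91.7% (90.2 to 93.1). Along the H3K27me3 ranks the share near Suz12 went from 55.2% (52.8 to 57.6) to 91% (89.5 to 92.3), while the share near H3K4me3 was 50.4% (48.1 to 52.8) at the bottom and 53.2% (50.8 to 55.6) at the top. H3K4me3 behaved otherwise: the share near Suz12 was 5.17% (4.44 to 6.02) in the lowest 10%, 31.3% (29.7 to 33) in the seventh band of 10% and 4.68% (3.98 to 5.49) in the highest. H3K4me3 peaks of middle to high score carried Polycomb marks more often than the strongest and the weakest ones. Score and length are linked in each list (Spearman rho 0.858 for H3K4me3, 0.69 for H3K27me3 and 0.911 for Suz12), and 3185 H3K4me3 peaks share the score of 3100, so ranks among them are arbitrary. Because longer peaks reach farther, part of the rise with score in the Suz12 and H3K27me3 lists is built in.

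**Figure D2:**
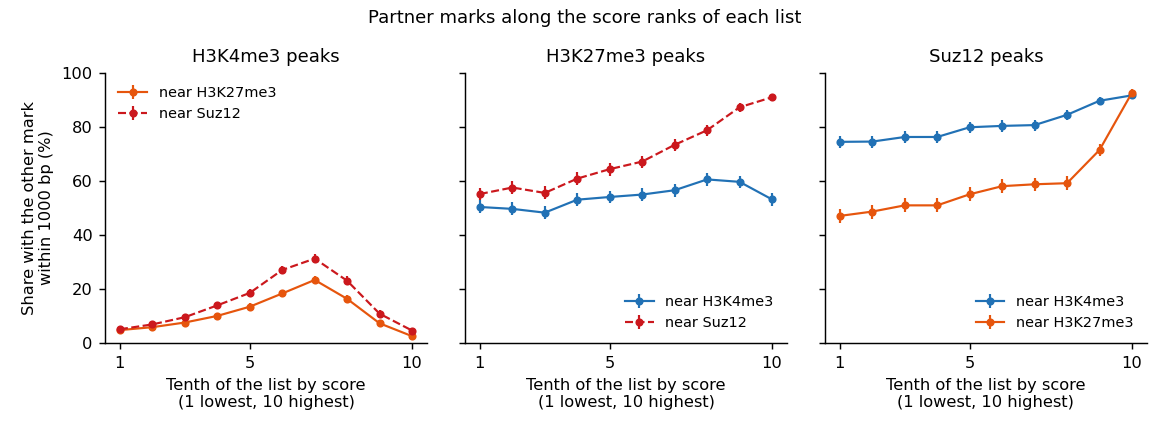
Each panel divides 1 list into 10 equal bands by score (x axis, lowest to highest) and gives the share of peaks with another mark within 1000 bp (%, y axis, bars are 95% Wilson intervals). The curves of the Suz12 list end at 92.7% and 91.7%, while those of the H3K4me3 list are highest in band 7 and fall to 4.68% and 2.6% in the last band.

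Over the 2869 H3K4me3 peaks with both Polycomb marks, the bases of Suz12 and H3K27me3 ranked together more closely than either ranked with H3K4me3. Spearman's rho between the summed bases of Suz12 and of H3K27me3 peaks within reach was 0.61, but between the numbers of their peaks it was 0.19. Between the length of the H3K4me3 peak and the Suz12 bases it was 0.16, and between that length and the H3K27me3 bases 0.12. By the score of the H3K4me3 peak rho was -0.15 with Suz12 bases and -0.09 with H3K27me3 bases. These are descriptions over peaks that share the same 3 lists, their depth and base composition, and a longer H3K4me3 peak has a longer reach. When the 2869 peaks were divided into 4 bands by Suz12 bases, the median H3K27me3 bases were 221, 295, 557 and 1161.5 and the median number of H3K27me3 peaks 1, 2, 3 and 5. The median number of Suz12 peaks was 2, 3, 3 and 3, while the median H3K4me3 length was 2843, 2886, 3130 and 3278.5 bp.

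Inside the H3K4me3 peaks the midpoints of the Polycomb peaks took different places. The midpoints of 9675 Suz12 peaks (69.6%) and of 5263 H3K27me3 peaks (31.5%) fell inside an H3K4me3 peak. Of these Suz12 midpoints 47.2% (46.3 to 48.2) lay in the central 33.3% of the H3K4me3 peak and 8.38% (7.85 to 8.95) in the outermost 10% at either end, which together make up 20% of its length. Of the H3K27me3 midpoints 15.4% (14.4 to 16.4) lay in the central part and 31.7% (30.4 to 32.9) in the outermost parts. When only the longest Polycomb peak of each H3K4me3 peak was counted, 59.8% of Suz12 and 11.2% of H3K27me3 midpoints were central. A peak that lies inside an H3K4me3 peak and fills much of it has its midpoint near the centre, so part of the Suz12 shares is built in. With that limit, Suz12 midpoints lay toward the middle of H3K4me3 and H3K27me3 midpoints toward its edges. The peaks themselves were not apart, since most H3K27me3 peaks inside H3K4me3 peaks with both marks overlapped a Suz12 peak (77.3%).

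**Figure D3:**
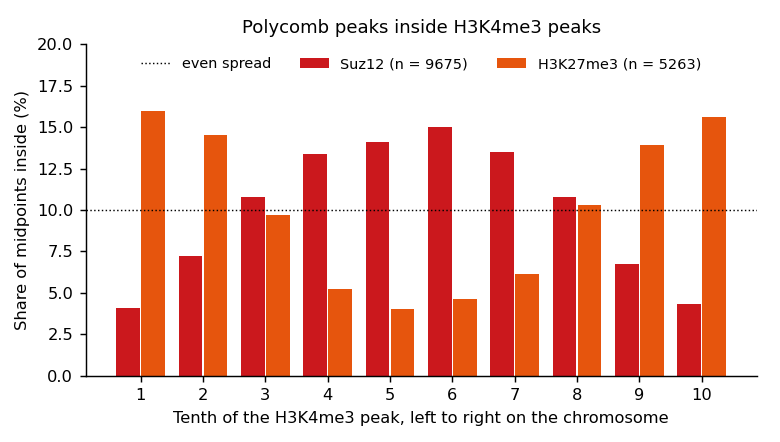
Bars give the share of Suz12 and H3K27me3 midpoints inside H3K4me3 peaks (%, y axis) in each 10% of the length of the H3K4me3 peak (x axis, left to right on the chromosome), and the dotted line an even spread. Suz12 is highest at 15% in band 6 and lowest at the ends (4.06% and 4.32%), H3K27me3 the other way round, with 4.01% in band 5 and 16% and 15.6% at the ends.

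A smaller share of H3K27me3 peaks than of Suz12 peaks overlapped H3K4me3, 34.6% against 72.6%. A further 19.5% of H3K27me3 peaks lay wholly outside an H3K4me3 peak but within 1000 bp of it, and 45.9% lay farther. For Suz12 peaks these shares were 8.29% and 19.1%. Being shares of all peaks, they do not show that H3K27me3 kept to the edges outside H3K4me3. Within the H3K4me3 peaks that had both marks, 77.3% (76.1 to 78.4) of the H3K27me3 peaks overlapped a Suz12 peak. Suz12 covered a median of 57.4% of an H3K4me3 peak with all 3 marks and 18.6% of one with Suz12 only, and H3K27me3 covered a median of 8.03% of those with all 3 marks.

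The same order was seen when peaks were placed by the direction of transcription. At the 2008 protein-coding genes with all 3 marks, a peak of H3K4me3 covered the 100 bp bin centred 550 bp after the start site in 94.3% of genes, and Suz12 covered the same bin in 72.2%. H3K27me3 peaks were rare at the start itself, in 2.27% of genes in the 100 bp before it and 1.86% in the 100 bp after it, and reached its highest share of 18.5% in the bin 1350 bp downstream. At the 1217 coding genes with H3K4me3 and Suz12 only, Suz12 was highest in that bin at 550 bp too, with 45.4%. Windows were set on these start sites, so some fall of every mark away from them is built in.

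**Figure D4:**
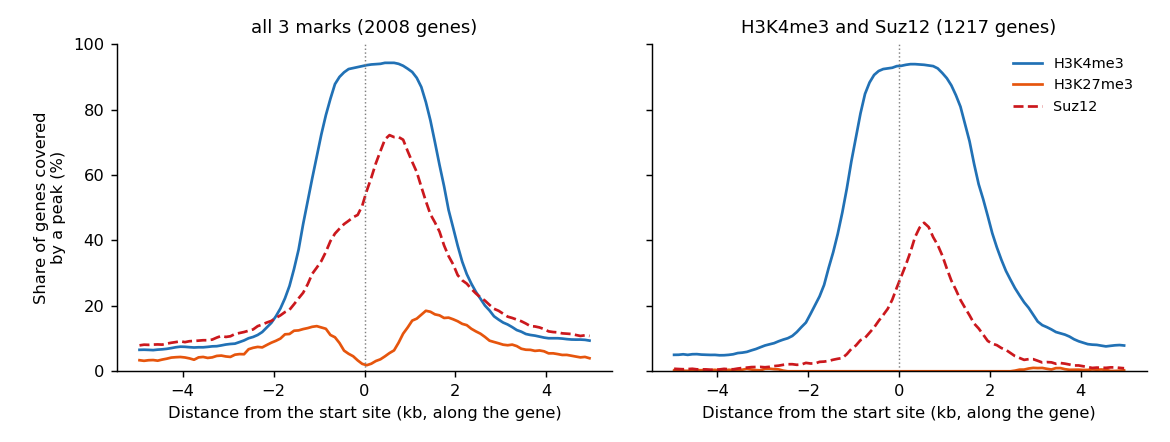
Lines give the share of protein-coding genes covered by a peak of each mark (%, y axis) in 100 bp bins along the gene (x axis, kb from the most upstream curated start site), for genes with all 3 marks and with H3K4me3 and Suz12. At the genes with all 3 marks H3K4me3 and Suz12 are highest 550 bp after the start and H3K27me3 forms a shoulder on each side with a gap at the start. At the genes with H3K4me3 and Suz12 these are highest at 250 and 550 bp, and H3K27me3 is at 0 near the start by the choice of the genes.

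Counted by gene, H3K4me3 alone was the most common state at start sites. Of 25755 genes, 12481 (48.5%) carried H3K4me3 alone, 1365 (5.3%) H3K4me3 and Suz12, 313 (1.22%) H3K4me3 and H3K27me3, and 2302 (8.94%) all 3 marks. Suz12 and H3K27me3 without H3K4me3 were found at 95 genes (0.369%), Suz12 alone at 30 (0.116%) and H3K27me3 alone at 70 (0.272%), and 9099 genes had no peak. Suz12 was found at 14.7% and H3K27me3 at 10.8% of all genes. Of the 3792 genes with Suz12, 96.7% (96.1 to 97.2) also had H3K4me3 and 63.2% (61.7 to 64.7) also had H3K27me3. Of the 2780 genes with H3K27me3, 94.1% (93.1 to 94.9) had H3K4me3 and 86.2% (84.9 to 87.5) had Suz12. The count of genes with all 3 marks was 803 when peaks scoring under 100 were left out, 1446 with lists of equal length and 1340 with windows of 1000 bp. Lists of equal length, which hold fewer H3K4me3 peaks, also moved the other states. No mark was then the most common, at 10884 genes against 10767 with H3K4me3 alone. Suz12 stood with H3K4me3 at 1104 genes and with both other marks at 1446, while 787 genes had Suz12 and H3K27me3, 455 Suz12 alone, 146 H3K27me3 alone and 166 H3K4me3 and H3K27me3. So the share of Suz12 genes with H3K4me3 and the rarity of Polycomb without it rest on the length of the H3K4me3 list.

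Away from start sites the picture was different. When the peaks of the 3 lists were joined into 32701 regions, 82.4% of the 2509 regions with all 3 marks reached a start site within 2500 bp, against 43.4% of the 24500 with H3K4me3 alone, 12.4% of the 356 with Suz12 and H3K27me3, 10.4% of the 355 with Suz12 alone and 4.69% of the 2902 with H3K27me3 alone. At the genes with H3K4me3 and Suz12 the nearest H3K27me3 peak was a median of 168.4 kb from the start sites, and it was within 5000 bp at 8.64% of them. Genes with H3K4me3 and H3K27me3 lay a median of 104.8 kb from Suz12. Coding genes with all 3 marks were longer, with a median of 43.5 kb, than those with H3K4me3 alone, with 21.2 kb.

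Most members of several families of developmental transcription factors carried all 3 marks. All 39 Hox genes, which give segments their identity along the body axis, had Suz12 and H3K27me3, and 36 of them had H3K4me3 as well. All 3 marks were found at 11 of 12 LIM-homeobox factors, 13 of 14 Nkx factors, 8 of 9 Pax factors, 11 of 16 T-box factors, 22 of 44 forkhead factors and 10 of 19 Sox factors, against 8.94% of all genes. Among the Hox genes Hoxa10 had 39280 bases of Suz12 peaks and 3522 of H3K27me3, Hoxa3 31741 and 2213, and Hoxa7 30955 and 2567. Neighbouring Hox genes share long peaks, and the 30955 bases of Hoxa7 and Hoxa9 are 1 and the same Suz12 peak. Pax6, needed for the eye and forebrain, had 17409 bases of Suz12 and 2387 of H3K27me3, and Pax2, a kidney and inner ear regulator, 17378 and 2657. Lhx2 had 18559 bases of Suz12, Nkx6-1 12291, Tbx2 15591, Sox1, an early neural factor, 13778, and Foxa2, an endoderm factor, 13541.

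**Figure D5:**
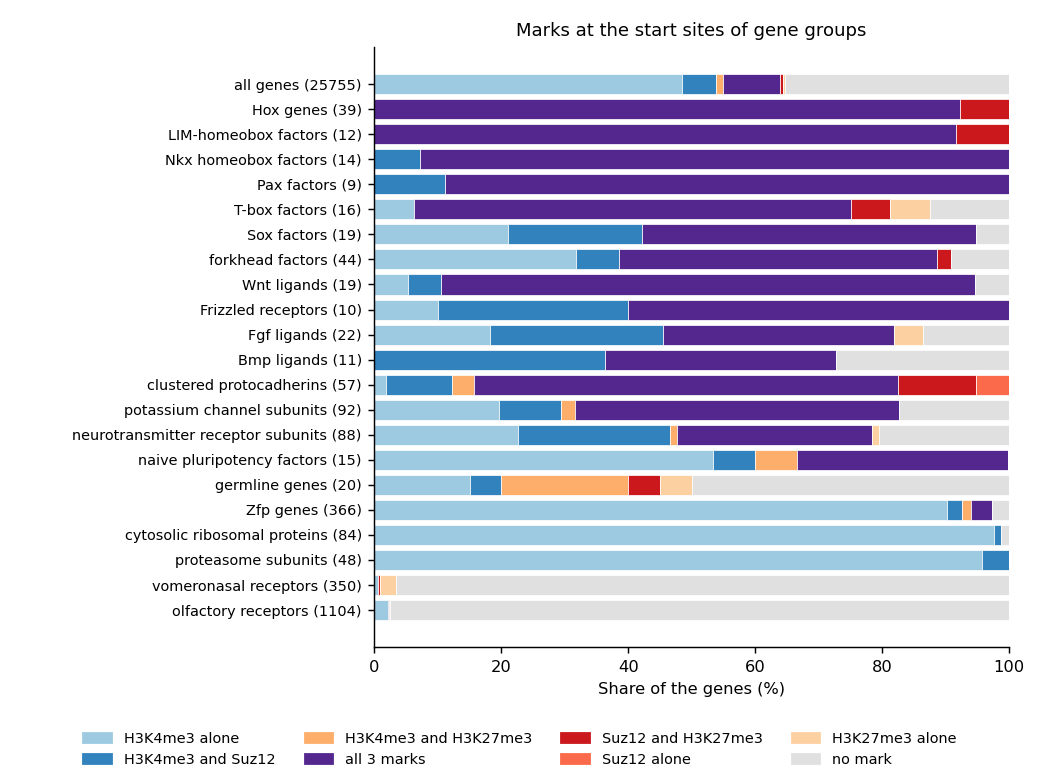
Each bar divides 1 group of genes (number in brackets) by the marks at its start sites (%, x axis), with all genes on top. Hox, LIM-homeobox, Nkx and Pax genes are mostly in the class of all 3 marks, ribosomal and proteasome genes in that of H3K4me3 alone, and olfactory and vomeronasal receptors in that of no mark.

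The families of signalling ligands differed among themselves. All 3 marks, found at 8.94% of all genes, were carried by 16 of 19 Wnt ligands and 6 of 10 Frizzled receptors, to which Wnt proteins bind, and another 3 Frizzled genes had H3K4me3 and Suz12 only, a state of 5.3% of all genes. Wnt5a had 9815 bases of Suz12 and 1712 of H3K27me3, Wnt7b 7753 and 1448, and Wnt11 6245 and 1705. Among the receptors Fzd1 had 4404 bases of Suz12 and 513 of H3K27me3, while Fzd8 had 1805 and Fzd9 1573 bases of Suz12 and no H3K27me3 peak. Of 22 Fgf ligands 8 had all 3 marks and 6 had H3K4me3 and Suz12, and of 11 Bmp ligands 4 and 4, against the same 8.94% and 5.3%. Bmp7 had 5344 bases of Suz12 and 887 of H3K27me3, whereas Bmp6 and Bmp4 had 2563 and 2265 bases of Suz12 and no H3K27me3 peak.

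The pathway lists taken from the study's supplement may have been drawn up with these samples in view, so they are not independent evidence. Of 166 canonical Wnt genes 58 had all 3 marks, of 102 TGF and BMP genes 39, and of 156 Hippo genes 40, against 8.94% of all genes. The lists of 476 MAPK, 320 pluripotency and 61 mTOR genes had 103, 15 and 3. Of the Jak-Stat genes, the list from GO had 14 of 88 and that from KEGG 12 of 154. In the canonical Wnt list the genes with the most Suz12 were Dlx5 (15033 bases), Prickle1 (11160), Wnt5a (9815) and Gata3 (8755).

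Genes for the work of mature neurons were also found among those with all 3 marks. All 3 marks were found at 47 of 92 potassium channel subunits, 27 of 88 neurotransmitter receptor subunits and 38 of 57 clustered protocadherins, adhesion proteins that give neurons their surface identity, against 8.94% of all genes. Kcnk9 had 4343 bases of Suz12 and 356 of H3K27me3, Kcnk10 4128 and 1889, and Grm8, a glutamate receptor, 3989 and 751. Pcdhga10 had 8005 bases of Suz12 and 1787 of H3K27me3. The protocadherins stand in a tandem array of similar sequence, so their peaks cannot be fully told apart from those of their neighbours. Of the 57 protocadherins, 7 had Suz12 and H3K27me3 without H3K4me3 (0.369% of all genes) and 3 had Suz12 alone (0.116%).

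Genes that every cell uses had H3K4me3 alone. That was the state of 82 of 84 cytosolic ribosomal protein genes, 77 of 78 mitochondrial ribosomal protein genes and 46 of 48 proteasome subunit genes, against 48.5% of all genes. The exceptions with Suz12 were Rpl7 with 888 bases, Mrps23 with 928, Psmb8 with 230 and Psmb3 with 185, and Rpl32l had no mark. Of 366 Zfp genes, zinc-finger factors, 330 had H3K4me3 alone and 12 all 3 marks, led by Zfp503, a developmental regulator, with 10762 bases of Suz12. No mark was found at 1076 of 1104 olfactory receptor genes and 338 of 350 vomeronasal receptor genes, against 35.3% of all genes. Of the vomeronasal genes 9 had H3K27me3 alone, a state of 0.272% of all genes. All 9 are Vmn2r genes with 103 to 332 bases of H3K27me3, in families of near-identical copies where reads are assigned with uncertainty.

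The pluripotency factors were not all free of Polycomb peaks. Of the 15, 8 or 53.3% had H3K4me3 alone, close to the 48.5% of all genes, among them Sox2 with 12641 bases of H3K4me3 peaks, Utf1 with 10053, Sall4 with 8833 and Pou5f1 with 8565. Another 5 had all 3 marks, a state of 8.94% of all genes: Tbx3 with 7563 bases of Suz12 and 452 of H3K27me3, Prdm14 with 3801 and 440, Esrrb with 2910 and 691, Klf5 with 904 and 129, and Dppa3 with 283 and 150. Klf4 had H3K4me3 and 3307 bases of Suz12, and Tfcp2l1 had H3K4me3 and a single H3K27me3 peak of 148 bp. A list cannot show whether marks at 1 gene sat in the same cells or in different ones. Of 12 genes of PRC2 itself 10 had H3K4me3 alone (48.5% of all genes), including Suz12 (5508 bases), Ezh2 (4968) and Eed (6592). Phf19 had all 3 marks with 1948 bases of Suz12, and 1 other gene had H3K4me3 and H3K27me3. Of 13 genes of the Myc network 10 had H3K4me3 alone as well, and 1 had all 3 marks. Myc had 8128 bases of H3K4me3 and 1643 of Suz12 without H3K27me3, and Mxi1 had 164 bases of Suz12.

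The following genes were chosen by the bases of their peaks, so their rank is no finding. Those with the most Suz12 among the genes with all 3 marks came from the Hox clusters and from other regulators of development. At Hoxa10, chr6:52231197-52240854, a Suz12 peak of 30955 bp at chr6:52211213-52242167 with the score 3100 ran over the whole gene and beyond it at both ends. The 2 H3K4me3 peaks there made up 4912 bp and scored no more than 109.2, and the highest of 14 H3K27me3 peaks, with 335.5, lay at chr6:52239239-52239999 in intron 1. Hoxd11 had 25716 bases of Suz12 and the highest H3K27me3 score of these genes, 1026.4, for a peak of 1977 bp upstream of the gene at chr2:74677126-74679102. Hoxb7 had 21612 bases of Suz12, Nr2f2, a nuclear receptor of vein and heart development, 20101, and Lhx2 18559. Their H3K4me3 peaks reached 878.9, 409.7 and 452.1. At these 5 genes, chosen for their Suz12, it covered far more DNA than H3K4me3, the reverse of the lists as a whole.

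Genes with H3K4me3 and Suz12 were led by Gata2, a factor of blood stem cells. At Gata2, 8 Suz12 peaks made up 7189 bases and the highest, with 2049.8, lay at chr6:88195540-88198034 in intron 1, where it overlapped an H3K4me3 peak of score 152.7. Sall3 had 6004 bases of Suz12, Onecut1, a liver and pancreas factor, 4813, Dusp4, a phosphatase that acts on MAP kinases, 4520, and Zfp423 4086. Dusp4 stood apart with a strong H3K4me3 peak of 7546 bp and score 3100 over its start site, exon 1 and intron 1, and a Suz12 peak of 3298 bp with the same score lay inside it. These 5 genes were chosen for their Suz12 bases and do not stand for their class. H3K4me3 peaks near Suz12 only had a median of 578 bases of Suz12 within reach, against 1936 for those with all 3 marks.

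Genes with H3K4me3 and H3K27me3 but no Suz12 held several that belong to germ cells, though the class rests on mostly weak H3K27me3 peaks. Of the H3K27me3 peaks near H3K4me3 only, 94.1% scored under 100. With peaks scoring under 100 left out, 51 genes were in this class, and 17 of them were among the 313 of the full lists. In the full lists 4 of 20 germline genes were in this state (Ddx4, Mov10l1, Stk31 and Tdrd1), which 1.22% of all genes had. Another 10 had no mark, against 35.3% of all genes. Ddx4, an RNA helicase of germ cells, led the class with 1031 bases of H3K27me3 in 4 peaks, the highest of them, with 191.4, just upstream of the gene at chr13:112652695-112653122. Zpbp2, a sperm protein that binds the egg coat, had 971 bases, Tdrkh, which acts in the piRNA pathway, 856, Cyp2r1, an enzyme of vitamin D synthesis, 672, and Efcab2 668. At Zpbp2 the H3K4me3 peak was strong, with 1338.4, and at Ddx4 weak, with 81.3. The H3K27me3 bases at these genes were few beside the 3522 of Hoxa10.

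Among coding genes, Polycomb without H3K4me3 was also led by developmental factors. Lmx1b, a factor of limb and dopamine neuron development, had 17261 bases of Suz12 and 1404 of H3K27me3 and no H3K4me3 peak in the window. Nfix had 16224 and 3495, Hoxc9 15657 and 2614, Pitx1, a hindlimb and pituitary factor, 12841 and 1403, and Osr1, a kidney factor, 12000 and 1421. The nearest H3K4me3 peak of the 95 genes in this state was a median of 19.1 kb from the start site. It was within 5000 bp at 23.2% of them. Of the 95 genes 46 were protein-coding, and 51 were left without the dense megabases described further on. The distance was not taken again without those. Hoxa13 and Hoxd8 were the other 2 Hox genes in this state. Gsc, a homeobox factor of the early embryo, led the 30 genes with Suz12 alone, with 5387 bases in 6 peaks and the highest, at 2195.1, upstream of the gene at chr12:104473916-104476607. Mamld1 had 2196 bases, Mid2 1546, Lrrtm3 972 and Slitrk3 935.

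The genes named for H3K27me3 alone were of another kind. The 5 named by rank were Gm4981 with 3624 bases of H3K27me3, Gm15319 with 2052, 4930467E23Rik with 1092, Gm21119 with 748 and Gm51573 with 727. All are predicted or little known genes, and 4 of them lie on chromosome 8. Gm15319, 4930467E23Rik and Gm21119 have the same promoter CpG ratio of 0.10 and stand among near-identical copies, so which copy carried the mark is uncertain. The 5 genes were chosen for their H3K27me3 bases and do not stand for the 70 of the class. Without the dense megabases described further on, 51 genes were left in it. In the full lists it also held 1 of 16 T-box factors, 1 of 22 Fgf ligands and 1 of 20 germline genes (0.272% of all genes).

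Among the genes with H3K4me3 alone, a single peak of 21653 bp at chr8:33911005-33932657 with the score 3100 covered the start site, exon 1 and intron 1 of Rbpms, an RNA-binding protein. Zmynd8, a chromatin reader, had 21456 bases in 2 peaks, Zfp982 20488 in 2, Kdm5b, an enzyme that removes H3K4me3, 19137 in 2, and Zfp219 18350 in 3. At these long peaks the score was not always high, and the highest-scoring peak reached 782.8 at Zmynd8 and 1409 at Kdm5b.

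Joined within 1000 bp, the Suz12 and H3K27me3 peaks formed 8799 Polycomb domains, 2810 of them with both, and 217 were 10000 bp or longer. Of these long domains 186 held H3K4me3. Ranked by the sum of Suz12 and H3K27me3 bases, in which bases under both marks count for each, 4 of the first 10 domains were the Hox clusters: HoxC over 108.5 kb, HoxA over 71.9 kb, HoxB over 44.3 kb and HoxD over 41.5 kb. The HoxC domain, chr15:102908993-103017485, held 66 Suz12 peaks (98.8 kb), 174 H3K27me3 peaks (44.7 kb) and 11 H3K4me3 peaks. Nr2f2 (49 kb) and Pax3 (35.8 kb), a factor of neural crest and muscle, made up another pair. The HoxC, HoxA, HoxD and HoxB domains were masked as repeats in 15.5, 12.8, 14.3 and 14.3% of their bases.

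The other 4 of these 10 domains were of another kind. The first by that sum, chr8:123537289-123625051, shorter than the HoxC domain and with fewer Suz12 bases, was the cluster of 5S ribosomal RNA genes, with 87 kb of Suz12 and 82.9 kb of H3K27me3 over 87.8 kb, no H3K4me3 peak, 79.3% of its bases masked as repeats and 32 genes. A pair of domains on chromosome 6, chr6:47737040-47773341 and chr6:47651530-47687051, the second over Rn4.5s, had 30.9 and 31.1 kb of H3K27me3 and scores up to 3100. The last was an interferon cluster with Ifnz, chr4:88771564-88807121. The 5S and 4.5S RNA genes are known to occur in many near-identical copies, whose reads cannot be assigned with certainty, so the amounts there are uncertain. The high H3K27me3 scores were concentrated there: of 61 H3K27me3 peaks that scored 1000 or more, 22 lay in the megabase of the 5S cluster, 19 in that of Rn4.5s, 11 in chr8:19000001-21000000, which holds beta-defensin genes, and 4 in that of Tcstv3 on chromosome 13.

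H3K27me3 peaks near neither mark were gathered as well. The 4060 peaks lay in 1363 megabases with a median of 2 each and as many as 99. They made up 3.39 per Mb on chromosome 7 and 4.03 per Mb on chromosome 8, against 0.681 on chromosome 3. Dense megabases held the beta-defensins on chromosome 8, the Sp100 and Sp140 genes on chromosome 1 (83 peaks near neither mark), the imprinted genes Mkrn3, Magel2 and Ndn on chromosome 7 (66, beside 80 Suz12 peaks) and Vmn2r genes on chromosome 7 (57 in the megabase of Vmn2r40 to Vmn2r45). With the 25 megabases that held 20 or more of these peaks, or 3 or more H3K27me3 peaks scoring at least 1000, left out, 21.3% of H3K27me3 peaks were near neither mark and rho between Suz12 and H3K27me3 bases was 0.63. Of the H3K27me3 peaks near neither mark 65.3% lay between genes and 29.4% inside a gene, away from a start site, while 52.6% of H3K27me3 peaks with Suz12 lay near a start site.

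At promoters the base composition separated H3K27me3 alone from the other combinations. Over the 300 bases around the start site (250 before to 50 after), the median ratio of observed to expected CpG at coding genes was 0.76 for H3K4me3 alone, 0.69 for H3K4me3 and Suz12, 0.71 for H3K4me3 and H3K27me3, 0.74 for all 3 marks, 0.66 for Suz12 and H3K27me3 and 0.41 for Suz12 alone (19 genes). It was 0.18 for H3K27me3 alone and 0.17 for no mark. For H3K27me3 alone it was 0.34 (10 genes) when peaks scoring under 100 were left out and 0.38 (133 genes) with lists of equal length. Single promoters strayed from their class: the ratio was 0.98 at Ddx4, 0.60 at Hoxa10, 0.93 at Gsc and 0.34 at Gm4981. Among the H3K27me3 peaks themselves the change was graded. Their median GC content was 46% with all 3 marks, 43.1% with Suz12 only, 42.2% with H3K4me3 only and 39.1% alone. Their median CpG ratio was 0.28, 0.19, 0.17 and 0.12 in the same order. Of the H3K27me3 peaks with all 3 marks 5.99% were mostly repeat, against 37.3% of those alone. H3K27me3 peaks near H3K4me3 only were intermediate in repeats, with 20.1%.

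CACGTG, the E-box letters that Myc and its partner Max are known to bind and that read the same on both strands, stood in 8.07% of all coding promoters of this length. It stood in 10.3% (9.77 to 10.9) of those with H3K4me3 alone, 7.97% (6.58 to 9.63) with H3K4me3 and Suz12, 8.91% (7.75 to 10.2) with all 3 marks and 13.4% (9.96 to 17.8) with H3K4me3 and H3K27me3. With Suz12 and H3K27me3 it stood in 9 of 46 or 19.6% (10.7 to 33.2), with H3K27me3 alone in 12.7% (6.58 to 23.1), with Suz12 alone in 0 of 19, which allows up to 16.8%, and with no mark in 3.52% (3.09 to 4). The interval of all 3 marks takes in the share of all promoters. The classes of Suz12 and H3K27me3 and of H3K27me3 alone are small and hold neighbouring copies of similar sequence. The intervals treat these copies as independent, so they are too narrow there. Among the 7 windows printed above, Ddx4 alone held these letters. A match of letters says nothing of binding, and the GC content of the classes differed too, with medians from 45.7% (no mark) to 65% (all 3 marks). Its part in these shares was not tested.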

How the data were processed

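Peaks of the 3 marks came from ChIP-sequencing. The authors aligned reads to GRCm38, kept unique best matches and called peaks with MACS at default settings. The submitters' processing notes name Bowtie2 2.2.3 and MACS 1.4.2. The deposited lists give a position and a score per peak, which MACS derives from the log of the p-value. It rises with depth as well as enrichment, so scores were ranked within a list only. Depth per library is not given in the sources used here.

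Intervals were compared with Python 3.11.15, pandas 2.3.3, numpy 2.4.6 and scipy 1.17.1, and sequence was read with pysam 0.24.0 from the GRCm38 RefSeq genome. Start sites were those of 45302 curated RefSeq transcripts (25755 symbols, pseudogenes left out), and each peak was counted once per gene. The code was tested on simulated data: 0 of 5975 interval comparisons, 0 of 800 planted gene states and 0 of 300 sums of peaks and bases were wrong. Shares carry 95% Wilson intervals, with no test, since there was 1 list per antibody. Exon and intron numbers refer to the curated transcript with the most exons. Figures were drawn with matplotlib 3.10.9.

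For each combination the 5 coding genes with the most peak bases were named (of Suz12, else of H3K27me3, else of H3K4me3), skipping genes that share peaks with one already named. For a gene list the members named are those with the most bases of the mark described, and small groups that form an exception. The 10 Polycomb domains with the highest sum of Suz12 and H3K27me3 bases (shared bases counted for each mark) were named by their genes. The members and lists were chosen with earlier results of these data known. Alternatives were a minimum score of 100, lists of equal length, other distances and windows, coding genes only, the highest score in place of bases, the longest Polycomb peak, and long H3K4me3 peaks. Leaving out dense megabases was added after the data were seen. The LIF-ESC lists were counted and not otherwise used here.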

Additional observations from a re-analysis of the deposited data

How the results depend on the processing

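No setting tried turned the sign of rho between Suz12 and H3K27me3 bases, or the order of Suz12 and H3K27me3 in the central part of H3K4me3 peaks. With scores of at least 100 (24601, 3378 and 6652 peaks of H3K4me3, H3K27me3 and Suz12), 3.85% of H3K4me3 peaks had both Polycomb marks, 32.2% of Suz12 peaks had H3K27me3, 79.7% of H3K27me3 peaks had Suz12, 16.5% were near neither mark, 51.9% of Suz12 and 12.1% of H3K27me3 midpoints were central, rho was 0.42 and 803 genes had all 3 marks. With lists of equal length the shares were 10.8% of H3K4me3 peaks with both marks, 49% of Suz12 peaks with H3K4me3, 55.1% with H3K27me3, 71.8% of H3K27me3 peaks with Suz12 and 13.7% of H3K27me3 midpoints central, rho was 0.55 and 1446 genes had all 3 marks. At 0 bp the shares in the same order were 8.14, 72.6, 31.5, 48 and, near neither mark, 42%, with rho 0.48, and at 5000 bp 10.6, 89, 74.7, 79.6 and 15.2%, with rho 0.68. By highest score rho was 0.46. The longest Polycomb peak alone gave 59.8% (Suz12) and 11.2% (H3K27me3) central, and H3K4me3 peaks of 3000 bp or more 43.3% and 17.2%. A window of 1000 bp left 1340 genes with all 3 marks. Without the dense megabases, 82.4% of Suz12 peaks had H3K4me3, 58.1% had H3K27me3, 72% of H3K27me3 peaks had Suz12, 21.3% were near neither mark and rho was 0.63. The 35 named genes kept their marks in 26 to 31 cases per setting. In 38 cases the median CpG ratio of a combination stayed between the lower and upper quartile of the main setting, which can still be a wide move. For Suz12 alone it went from 0.41 to 0.59 with scores of at least 100 and to 0.58 with lists of equal length. The 2 cases outside the quartiles, both for H3K27me3 alone, were 0.34 and 0.38. The dense megabases were chosen after the data were seen. The cause of these shifts was not tested. No paired analysis was possible because each antibody has 1 list.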
